A study of Mus musculus with 16 samples.

Results

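The cytosolic ribosomal protein genes encode the protein part of the ribosome that translates nuclear-encoded mRNAs. They were taken here by name, as the protein-coding genes Rpsa, Rplp0, Rplp1 and Rplp2 together with every Rps or Rpl name made of a number and at most 1 closing letter (a, x, y or l). Pseudogenes and the Rps6k kinases were left out. The rule found 73 of 14785 protein-coding gene names, namely 30 genes of the small subunit, 40 of the large subunit and 3 of the stalk. These 73 genes were held by 323 of 80137 transcripts. In the GENCODE vM21 annotation 80 protein-coding genes have such a name, and the remaining 7 (Rpl10, Rpl10l, Rpl13, Rpl36a, Rpl39, Rpl39l and Rps4x) were not analysed here.

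Each ribosome is built from a single copy of nearly every ribosomal protein, and its subunits are assembled in the nucleolus from these proteins and the ribosomal RNAs. The mRNAs are short, abundant and present in every cell, and most begin with a run of pyrimidines through which the mTOR pathway and the RNA-binding protein Larp1 regulate their translation. In neurons ribosomes also stand in dendrites and axons, where local translation serves synaptic plasticity.

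All mice were wild type C57BL/6, 3 months old, and both hippocampi of a mouse were pooled into 1 library, with 4 mice in each of 4 groups. HC mice stayed in the homecage without shocks, trials or handling. Ctrl mice were put into the shuttle box without shocks on the day of induction and, the day after, went through 30 escapable shock trials of 0.4 mA there, but had no inescapable shocks. NLH (resilient) and LH (helpless) mice had 180 inescapable shocks of 0.4 mA and, 24 h later, the same 30 trials, and were separated by their failures and latencies in these trials, so that stress was assigned and outcome was not. The question was which transcripts go with handling, the box or the test session (Ctrl vs. HC, which does not separate these), with resilience (NLH vs. Ctrl) and with helplessness (LH vs. Ctrl, LH vs. NLH). NLH and LH mice both had the inescapable shocks and Ctrl mice had none, so the comparisons with Ctrl do not separate shocks from outcome.

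Expression was given in FPKM, the sequenced fragments of a transcript relative to its length and to the size of the library. A gene value is the sum over its rows typed protein_coding in the data, some of which the annotation does not class as coding transcripts. Marker genes of neurons were at a summed 728.6 to 1028 FPKM in all 16 mice (7 of 7 listed genes measured), whereas the striatal list (6 of 6 measured) summed to 7.53 to 18.3 FPKM. Among the other lists, choroid plexus genes (6 of 6) differed most between mice, from 2.57 to 94.6 FPKM with both ends in the LH group. A pair of libraries stood apart, LH 3 and LH 4, in which 10846 and 15504 transcripts were at 0 against 4872 to 7352 in the other mice. The size factor of a library, which is its median ratio to the mean library, ran from 0.816 in LH 4 to 1.21 in LH 2. In bulk tissue, fewer cells of a type and less RNA per cell cannot be told apart.

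The start of these genes is the sequence that sets their mRNAs apart from others, and 8 members with an unbroken pyrimidine run across the start annotated by RefSeq (GRCm38.p6) are printed 5′ to 3′ with the run in capitals.
Rpl27a (chr7:109519183-109519212, plus strand): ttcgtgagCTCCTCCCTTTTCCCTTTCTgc
Rpl35 (chr2:39005114-39005143, minus strand): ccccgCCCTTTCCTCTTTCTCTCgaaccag
Rpl15 (chr14:18270969-18270998, minus strand): ggagaaagCCTTCTTCCTTTCCTCTggcgg
Rpl35a (chr16:33056470-33056499, plus strand): gggcttgCCTTCCTCTTTCCgccatcttgg
Rps18 (chr17:33955648-33955677, minus strand): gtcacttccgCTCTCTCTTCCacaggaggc
Rpl38 (chr11:114668568-114668597, plus strand): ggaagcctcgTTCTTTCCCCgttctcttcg
Rplp2 (chr7:141447639-141447668, plus strand): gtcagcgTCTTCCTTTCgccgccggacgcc
Rps27 (chr3:90213631-90213660, minus strand): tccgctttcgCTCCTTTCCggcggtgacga
The runs were from 9 (Rps27) to 20 bases (Rpl27a) long. A run of at least 8 C or T on the coding strand, between 30 bases before and 50 bases after the start, stood in 46 of 65 promoter entries of the 53 members that the table holds (70.8%), and in 9527 of all 32851 entries (29.0%).

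A further stretch of letters, CCGGAAG on either strand, which is the core recognised by the ETS family factor GABP, occurred in 24 of the 65 entries (36.9%) between 250 bases before and 50 bases after the start, and in 8.86% of all entries. In 4 named members it lay just behind the start, in capitals here.
Rpl26 (chr11:68901559-68901588, plus strand): aacttacagaaCCGGAAGtcgcgtgtagtt
Rpl31 (chr1:39367848-39367877, plus strand): ctccccgtgacCCGGAAGttgtacggctac
Rpl6 (chr5:121204502-121204531, plus strand): ttgcttatagaCCGGAAGccgctgccttag
Rps27l (chr9:66946084-66946113, plus strand): ccgcctctatcCCGGAAGttgctgaggggc
These are matches of letters only.

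Expression of the family was high and uneven. The median gene stood at 38.5 FPKM over the 16 mice, 62 genes lay between 10 and 100 FPKM, 7 exceeded 100 and 4 were below 10. Rpl26, a protein at the exit of the peptide tunnel, was highest with a mean of 178.5 FPKM, and was followed by Rps15 (140.5), Rpl13a (133.0), Rps14 (132.0), Rplp1 (116.1) and Rps26 (104.3). Below 100 FPKM came Rps24 (96.7), Rpl34 (94.7) and Rpl3 (91.0). Rpl24 (7.39), Rpl7a (6.53) and Rpl35a (9.11) were the lowest members apart from Rpl3l, and Rpl37 came next at 11.2 FPKM. Values of different genes are compared per length here, and since a gene's reads can also be counted for a pseudogene copy or for an assembled transcript, the order is that of the deposited estimates. The median length of the leading transcript was 640 bases against 2600 bases over all protein-coding genes.

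Among paralogs with restricted or inducible use, Rpl3l stood far below its partner and Rps27l did not. Rpl3l, the muscle form of Rpl3, was listed at 0 in 14 of 16 mice, with 0.110 FPKM in Ctrl 1 and 0.129 FPKM in LH 3, while Rpl3, which lines the peptidyl transferase centre, was at 68.5 to 113.5 FPKM. Rps27l, a p53-inducible relative of Rps27, was at 8.32 to 16.9 FPKM in all mice and its group means ran from 9.65 ± 1.92 (Ctrl) to 12.4 ± 3.35 FPKM (NLH, both SD, n = 4). Rps27 itself had a mean of 15.15 FPKM but spanned 4.18 to 57.3 FPKM.

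Summed over the 73 genes, the family took 2.54 ± 0.0804% (HC), 2.52 ± 0.0451% (Ctrl), 2.76 ± 0.158% (NLH) and 2.40 ± 0.242% (LH) of all FPKM (SD, n = 4). The NLH mice were at 2.55, 2.76, 2.91 and 2.84%, and the 4 Ctrl mice at 2.46, 2.55, 2.52 and 2.55%. The LH mice were at 2.57, 2.58, 2.40 and 2.06%. Thus NLH 2, NLH 3 and NLH 4 exceeded all the other mice, NLH 1 overlapped with HC, Ctrl and LH, and LH 4 was the lowest. After each mouse was divided by its size factor, the sums were 3329 ± 91.8 (HC), 3311 ± 45.5 (Ctrl), 3605 ± 164 (NLH) and 3252 ± 152 FPKM (LH), in which NLH 1 with 3389 still overlapped with HC 1 at 3445. These sums are a description and carry no test.

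**Figure D1:**
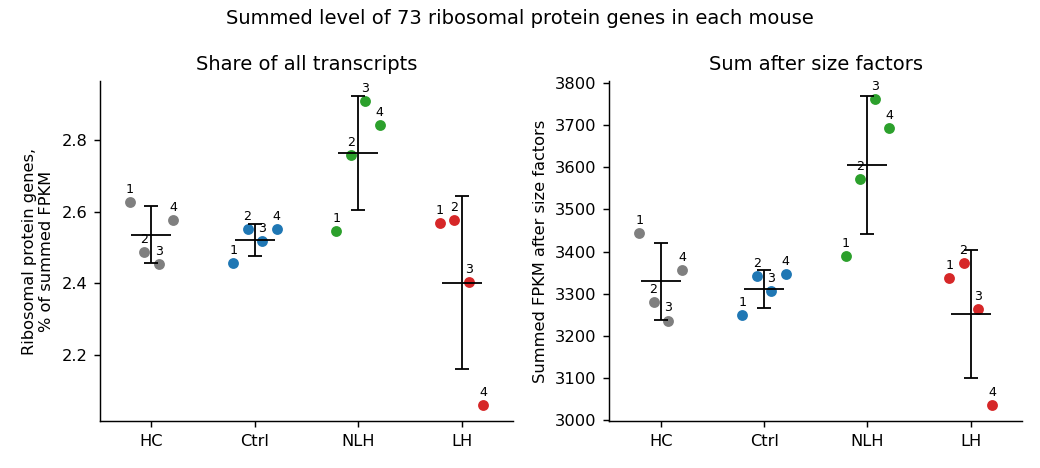
Summed level of the 73 ribosomal protein genes in each mouse, as percent of the FPKM of all transcripts (left) and in FPKM after median-ratio size factors (right). Points are mice with their replicate number, the bar is the mean ± SD of 4 mice and the axes do not start at 0. NLH 2, 3 and 4 lie above every other mouse and LH 4 below.

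Small-subunit genes took 41.45 ± 0.860% (HC), 41.8 ± 0.222% (Ctrl), 41.9 ± 0.243% (NLH) and 40.8 ± 1.73% (LH) of the family (SD, n = 4), with LH 4 lowest at 38.3%.

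Mice of a group spread more in NLH and LH than in HC and Ctrl, for the members as for all genes. The median SD of log2(FPKM + 0.1) over the members was 0.14 (HC), 0.12 (Ctrl), 0.21 (NLH) and 0.40 (LH), beside 0.15, 0.14, 0.20 and 0.36 over all 10108 genes with a mean of at least 1 FPKM. LH 4 had the lowest value of all 16 mice in 41 of 73 members, NLH 3 the highest in 27 and LH 2 the highest in 16. Rplp1, Rpl13a, Rpl8, Rpl5 and Rps16 varied least (SD 0.16 to 0.17 on the log2 scale over 16 mice). Rpl38, Rps27, Rpl7a, Rps20 and Rps12 varied most (SD 0.64 to 1.15).

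**Figure D2:**
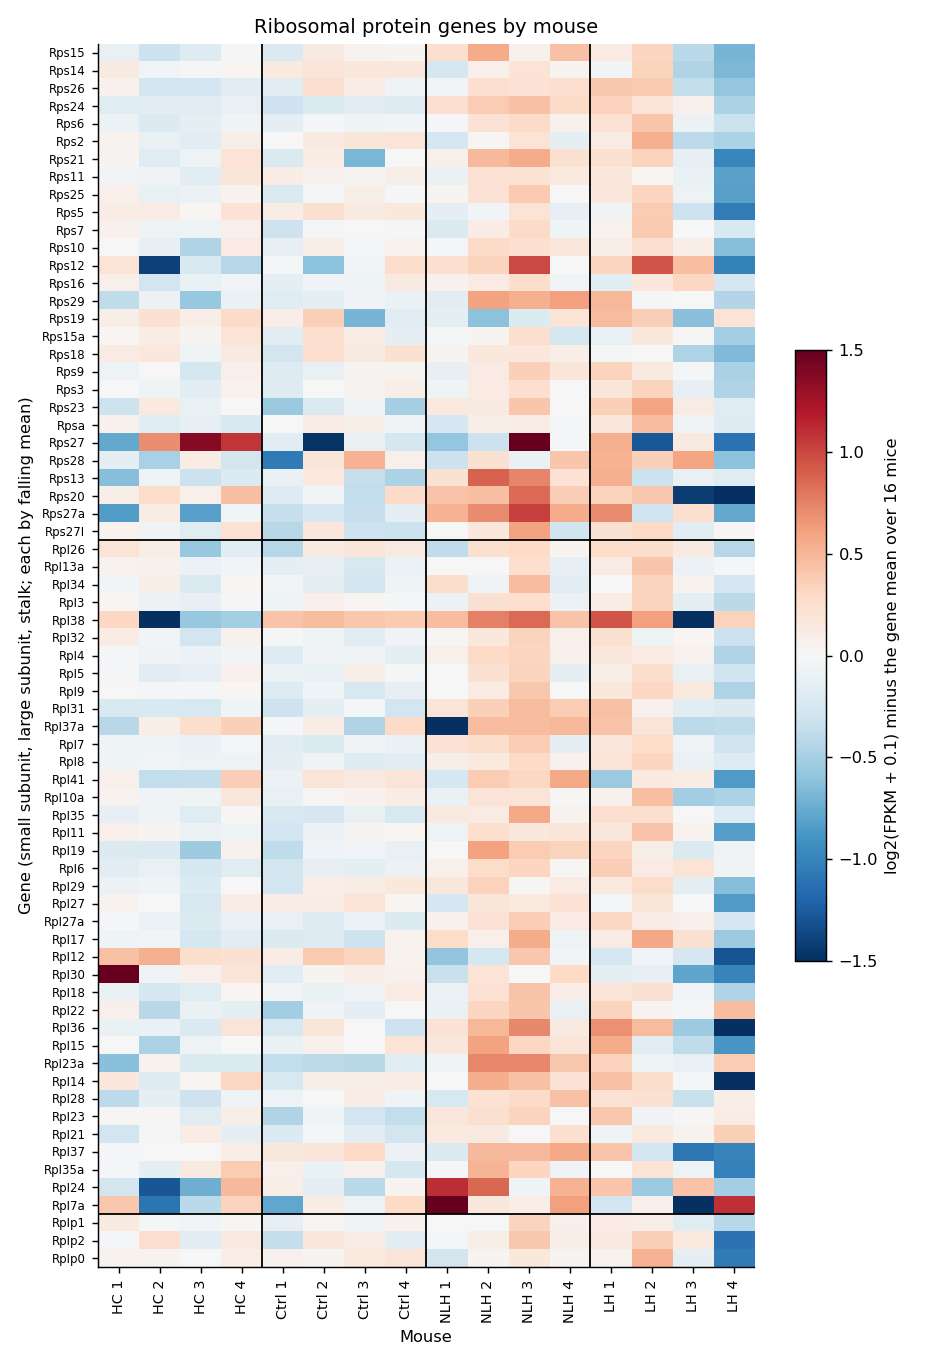
Each row is a ribosomal protein gene with a mean of at least 1 FPKM (69 of 72 genes are drawn), each column a mouse, and colour gives log2(FPKM + 0.1) minus the gene's mean over 16 mice, with colours ending at 1.5 in either direction. NLH 2 and NLH 3 are red in most rows and LH 4 blue, while Rps27, Rpl30, Rpl38 and Rpl7a depart in single mice.

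The members varied together across mice, as did other genes. With group means removed, the median pairwise Pearson r of 72 members over the 16 mice was 0.539, that of respiratory chain subunit genes 0.572 and that of mitochondrial ribosomal protein genes 0.343. After size factors these values were 0.0614, 0.0482 and 0.0143. On the deposited values without the LH mice they were 0.407, 0.394 and 0.195. The genes share the same libraries, and 2390 other genes with a mean of at least 10 FPKM had a median r of 0.775 with the summed members, beside 0.777 for the members themselves. The non-member genes with the pattern most like the sum were Copg1, Fam19a5, Dennd5a, Aplp1, Pea15a and Fbxw11 (r of 0.974 to 0.982 over 16 mice).

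In Ctrl mice, which differed from HC mice in handling, the shuttle box and the test session together, the family as a whole stood close to the homecage level. In Ctrl vs. HC, 36 of 73 members had a higher log2 level (56.3% of all genes), with a median log2 difference of -0.0046 (0.03 over all genes). No member passed an adjusted p of 0.05 in limma, as did none of the 14785 genes (0%), 1 member had an unadjusted p under 0.05 with a higher level (1.66% of all genes) and 1 with a lower level (0.974%), and 6 members by the two-sample test on FPKM (9.31%). Without overlap, Rpl38 and Rps14 lay above HC (3.87% of all genes) and Rpl9 below (1.97%). After size factors 4 members lay above and 6 below (3.58% and 3.26%), and 32 were higher (49.5%). Rpl38, a large-subunit protein known for its part in the translation of Hox mRNAs, was at 80.3, 6.01, 43.7 and 45.5 FPKM in HC and at 87.4, 89.7, 86.1 and 85.2 FPKM in Ctrl. The groups did not overlap, but HC 1 lay close to Ctrl and the HC mice spread over a wide range (log2 difference 1.47 ± 0.64 SE, limma adjusted p = 1). Without HC 2 the difference was 0.68 and without HC 1 it was 1.92. Rpl30 stood at 70.2 FPKM in HC 1 and at 21.8 to 26.05 FPKM in the other HC mice, and Rps27 was at 6.85 to 30.3 FPKM in HC and 4.18 to 10.9 FPKM in Ctrl.
Rpl23, which can bind the p53 inhibitor Mdm2, was at 13.6 to 16.4 FPKM in HC and 11.2 to 14.7 FPKM in Ctrl (log2 difference -0.28 ± 0.12 SE, limma adjusted p = 1). Rps23, a protein of the decoding centre, had a log2 difference of -0.26 ± 0.16 SE, which turned to 0.0045 ± 0.11 SE with the unnamed assembled row of its locus added.

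In NLH vs. Ctrl most members stood higher in the resilient mice, and none passed the adjusted test. The log2 difference was above 0 for 63 of 73 members (63.4% of all genes), and its median was 0.21, beside 0.07 over all genes. By limma 18 members had an unadjusted p under 0.05 with a higher log2 level, or 24.7% of the family beside 4.99% of all genes, and none with a lower level (0.967% of all genes). At an adjusted p of 0.05, 0 of 73 members and 0 of 14785 genes (0%) were called, and the two-sample test on FPKM gave 23 members at an unadjusted p under 0.05 (10.4% of all genes). In 19 members every NLH mouse lay above every Ctrl mouse (5.48% of all genes) and in none below (1.25%). Among these 19 were Rps6, Rps13, Rps20, Rps23, Rps24 and Rps27a of the small subunit and Rpl4, Rpl6, Rpl8, Rpl9, Rpl19, Rpl21, Rpl23, Rpl23a, Rpl27a, Rpl31, Rpl32 and Rpl35 of the large one.

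Rps24, a small-subunit protein needed to process the ribosomal RNA precursor and mutated in Diamond-Blackfan anaemia, was at 76.5, 82.15, 84.2 and 83.3 FPKM in Ctrl and at 111.8, 124.0, 128.6 and 116.1 FPKM in NLH. The lowest NLH mouse lay well above the highest Ctrl and HC mouse (87.85 FPKM). Its log2 difference was 0.56 ± 0.13 SE (limma adjusted p = 0.313), and after size factors 0.48 with a limma adjusted p of 0.00991, the only member called on that scale (0.0744% of all genes). Rps24 lies on chromosome 14 (GRCm38, 24487125 to 24496959, plus strand), and 99.8% of its FPKM came from a single transcript.

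Rpl31, a protein of the large subunit, was at 43.3, 48.3, 52.8 and 43.9 FPKM in Ctrl and 61.4, 68.9, 74.6 and 69.7 FPKM in NLH, without overlap (log2 difference 0.54 ± 0.13 SE, limma adjusted p = 0.309). Rpl23a, the docking site of the signal recognition particle, was at 14.3, 14.1, 13.9 and 16.35 FPKM in Ctrl and 17.8, 30.5, 30.6 and 24.6 FPKM in NLH. NLH 1 came close to Ctrl 4 and overlapped with HC 2 at 19.3 FPKM (log2 difference 0.79 ± 0.18 SE, limma adjusted p = 0.309). Rpl23 was at 11.2 to 14.7 FPKM in Ctrl and 15.5 to 19.4 FPKM in NLH (log2 difference 0.48 ± 0.12 SE, limma adjusted p = 0.372). In Rps24, Rpl31, Rpl23a and Rpl23 the groups did not overlap, as in 5.48% of all genes with NLH higher. The two-sided exact permutation test then always gives p = 0.0286, the smallest for 4 against 4 mice, and adds nothing to the lack of overlap.

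Rps27a, which is made as a fusion with ubiquitin, was at 8.51, 8.96, 8.48 and 9.73 FPKM in Ctrl and 15.6, 17.8, 22.1 and 15.9 FPKM in NLH. All NLH mice lay above all Ctrl and HC mice. Over the whole comparison the difference was seen in both subunits, with 24 of 30 small-subunit genes (median log2 difference 0.18) and 37 of 40 large-subunit genes (0.25) higher in NLH. None of the 3 stalk genes, whose proteins recruit the elongation factors, was without overlap. Rplp0 was at 44.6 ± 2.20 FPKM in Ctrl and 41.3 ± 5.11 in NLH, Rplp1 at 113.6 ± 6.78 and 124.0 ± 14.6, and Rplp2 at 57.4 ± 9.43 and 65.9 ± 8.92 (SD, n = 4).

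The size factors shifted the median of all genes from 0.07 to -0.0027, and with them the members had a median log2 difference of 0.12, 54 of 73 were higher in NLH (48.8% of all genes), and 19 and 3 members lay without overlap above and below Ctrl (3.88% and 3.99% of all genes). Limma with array quality weights, which lower the part of libraries that vary more, called 14 members, all higher in NLH (19.2% of the family beside 1.24% of all genes). With only these groups in the fit 3 members were called, Rps24 and Rps27a among them (0.0744% of all genes), without LH 4 Rps24 alone (0.0744%), and without LH 3 and LH 4 again 3 members, Rpl31 and Rps24 among them (0.142%).

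**Figure D3:**
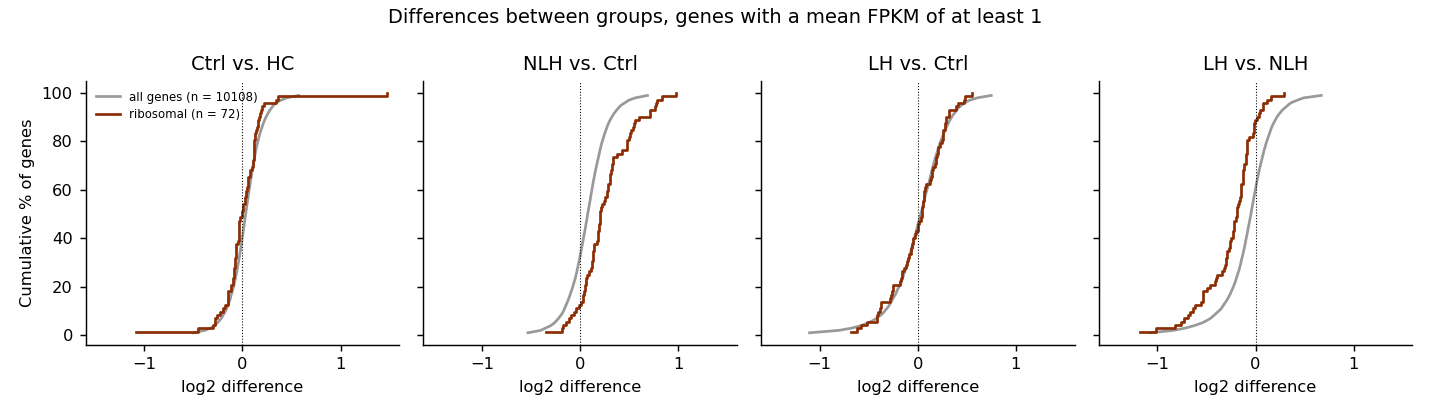
Cumulative percent of genes (y) by log2 difference (x) in the 4 comparisons, for 72 ribosomal protein genes and for all 10108 genes with a mean of at least 1 FPKM. The ribosomal curve lies to the right of all genes in NLH vs. Ctrl and to the left in LH vs. NLH, while in Ctrl vs. HC and LH vs. Ctrl the curves run close together.

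In LH vs. Ctrl, which shares its 4 Ctrl mice with the comparison above, the members went both ways. The log2 difference was above 0 for 41 of 73 members (51.6% of all genes), with a median of 0.04 (0.0098 over all genes). No member was called by limma at an adjusted p of 0.05 (0.0541% of all genes, 8 genes). By limma 9 members had an unadjusted p under 0.05 with a higher log2 level (8.18% of all genes) and 4 with a lower level (3.58%), and the two-sample test on FPKM gave 7 (8.08%). In 5 members, among them Rpl6, Rpl13a, Rpl23 and Rpl23a, every LH mouse lay above every Ctrl mouse (4.84% of all genes) and in 1, Rpl12, below (1.14%).

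Rpl6 was at 28.8, 31.9, 31.6 and 32.7 FPKM in Ctrl and 45.0, 37.7, 40.2 and 33.5 FPKM in LH. All LH mice were above Ctrl, LH 4 by a small margin (log2 difference 0.32 ± 0.10 SE, limma adjusted p = 0.219). Rpl23 (0.41 ± 0.12 SE, limma adjusted p = 0.184) and Rps23 (0.56 ± 0.16 SE, limma adjusted p = 0.188) had the smallest p, and Rps23 overlapped between the groups with 12.8 to 18.1 FPKM in Ctrl and 16.6 to 28.35 FPKM in LH. Since 77.3% of the Rps23 locus stood in an assembled row without a gene name, the locus sum differed less, at 67.6, 78.2, 78.1 and 80.0 FPKM in Ctrl and 106.0, 98.8, 81.1 and 76.2 FPKM in LH (log2 difference 0.24 ± 0.11 SE, limma adjusted p = 0.355). Rpl12, at the base of the stalk, was lower: 25.9, 31.7, 30.1 and 25.1 FPKM in Ctrl and 20.05, 23.3, 20.25 and 9.74 FPKM in LH (log2 difference -0.68 ± 0.23 SE, limma adjusted p = 0.257, and -0.41 without LH 4). It was also lower in 3 of 4 NLH mice, at 15.9, 20.1 and 23.4 FPKM, with NLH 3 at 31.9 FPKM.

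Leaving out LH 3 and LH 4, in which more transcripts were at 0, moved these counts. Without LH 4, limma called 3 members in LH vs. Ctrl, namely Rpl6, Rps23 and Rps24, all higher in LH (4.11% beside 1.68% of all genes), and the median log2 difference was 0.18 (0.12 over all genes). For Rps23 this call was lost in the locus sum (log2 difference 0.32 ± 0.10 SE, limma adjusted p = 0.0873). Without both libraries 11 members were called, all higher, which is 15.1% of the family beside 8.10% of all genes, with a median of 0.29 (0.23 over all genes), and 43 lay above and 1 below Ctrl without overlap (37.5% and 2.66% of all genes). After size factors a single member was called, Rps18, lower in LH (log2 difference -0.41, limma adjusted p = 0.0366, with 0.345% of all genes called), 38 members were higher (46.7%), and 6 lay above and 7 below Ctrl without overlap (4.89% and 3.92%). With array quality weights 13 members were called, all higher, which is 17.8% of the family beside 10.2% of all genes.

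In LH vs. NLH, the comparison of mice with the same shocks and different outcome, most members stood lower in LH and none was called. The log2 difference was below 0 for 64 of 73 members and above 0 for 9 (39.9% of all genes), with none above NLH without overlap (0.92% of all genes) and a median of -0.19 (-0.05 over all genes). By limma 10 members had an unadjusted p under 0.05 with a lower log2 level (4.05% of all genes) and none with a higher level (2.98%), no adjusted p was under 0.05 (0.00676% of all genes, 1 gene) and the two-sample test on FPKM gave 1 member (3.06%). Rps18 alone lay without overlap below NLH (1.06% of all genes).

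Rps18, a protein of the head of the small subunit, was at 33.3, 36.1, 36.25 and 34.3 FPKM in NLH and 31.9, 32.2, 23.5 and 20.4 FPKM in LH. The NLH mice lay close together and LH 1 and LH 2 just below them (log2 difference -0.40 ± 0.14 SE, limma adjusted p = 0.605). Rps20 was at 14.7, 14.9, 19.75 and 14.1 FPKM in NLH and 13.9, 14.5, 4.02 and 2.71 FPKM in LH. Here LH 1 and LH 2 were near NLH, and LH 3 and LH 4 were low (log2 difference -1.18 ± 0.40 SE, limma adjusted p = 0.566). Over coding transcripts alone, a sum that leaves out the leading row of Rps20, the sign turned, to 0.22. That leading row, ENSMUST00000103009, was at 11.8 to 17.4 FPKM in NLH and at 11.3, 12.3, 1.68 and 0.31 FPKM in LH. Rpl37 was likewise lowest in LH 3 and LH 4, with 14.4, 8.80, 5.00 and 5.32 FPKM in LH and 9.25 to 15.9 FPKM in NLH (log2 difference -0.82 ± 0.26 SE, limma adjusted p = 0.481). Rps15 was at 143.7 to 202.5 FPKM in NLH and at 149.5, 171.2, 103.8 and 84.5 FPKM in LH (log2 difference -0.49 ± 0.18 SE, limma adjusted p = 0.605). Rps27a was at 17.75, 8.75, 12.9 and 6.28 FPKM in LH, with LH 1 inside the NLH range (log2 difference -0.73 ± 0.27 SE, limma adjusted p = 0.621). Without LH 4 the log2 difference was -0.32 for Rps15, -0.74 for Rps20 and -0.48 for Rps27a.

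The direction of this comparison over the family depended on the same libraries. Without LH 4 the median log2 difference was -0.04 (0.05 over all genes) and 27 of 73 members were higher in LH (59.9% of all genes). Without LH 3 and LH 4 it turned to 0.04 (0.16 over all genes), with 45 of 73 members higher (74.6% of all genes) and 3 above and 2 below NLH without overlap (19.5% and 2.53% of all genes). After size factors it was -0.15 (-0.02 over all genes) with 14 members higher (46.6% of all genes), no member called (0.0135% of all genes) and 6 below NLH without overlap (1.83%), none above (1.1%).

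**Figure D4:**
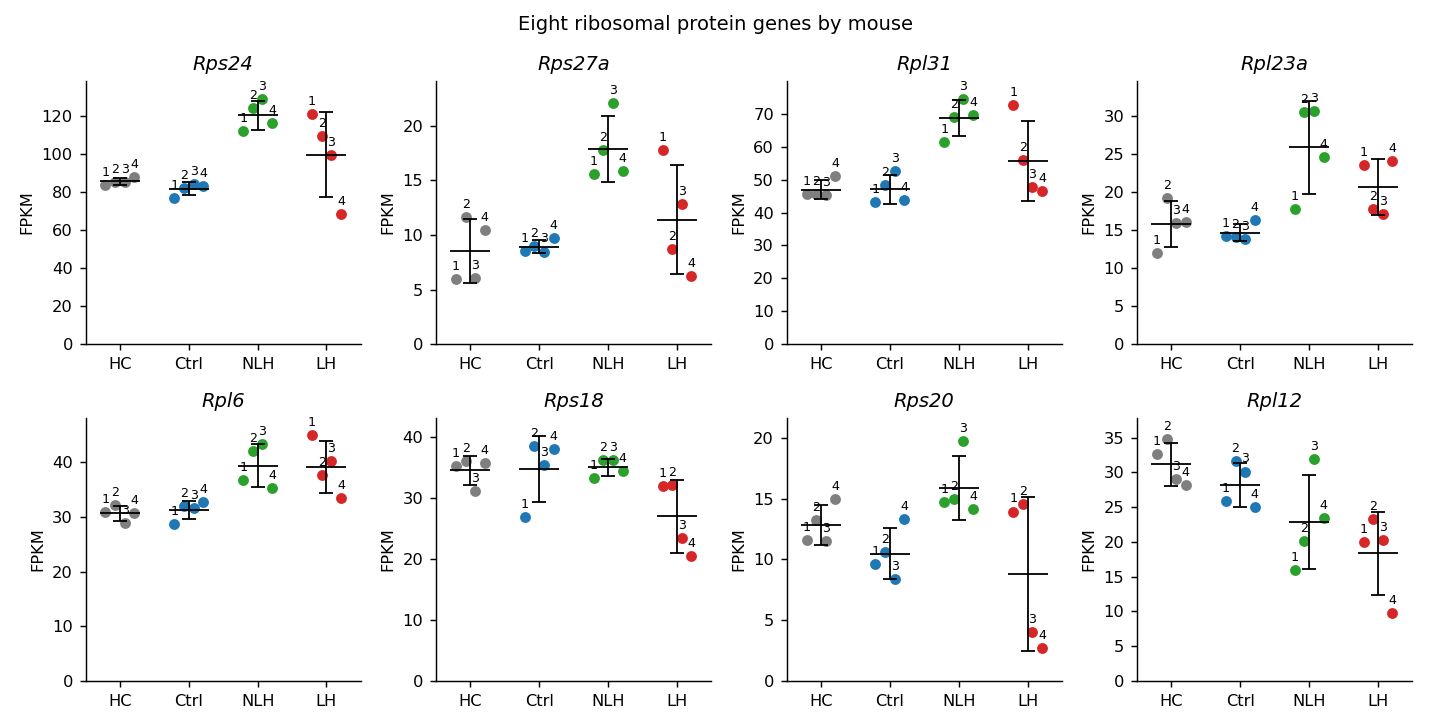
FPKM of 8 ribosomal protein genes in each mouse, with the replicate number beside each point and the mean ± SD of 4 mice as bars. NLH lies above Ctrl without overlap in Rps24, Rps27a, Rpl31, Rpl23a, Rpl6 and Rps20, while LH 3 and LH 4 are the lowest mice in Rps18 and Rps20.

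Other genes of translation were read beside the family. Of 17 measured translation factors and other mRNAs with a pyrimidine start, 16 were higher in NLH than in Ctrl, 9 with an unadjusted limma p under 0.05 (4.99% of all genes) and 7 without overlap (5.48% of all genes), and none passed the adjusted test. After size factors 1 was called, Tpt1 (log2 difference 0.51 ± 0.07 SE, limma adjusted p = 0.00991, with 0.0744% of all genes called). In LH vs. Ctrl 2 of the 17 were called by limma (0.0541% of all genes), both higher: Nap1l1, a histone chaperone, at 22.8 against 13.1 FPKM (log2 difference 0.79 ± 0.13 SE, adjusted p = 0.0429) and Naca, which binds nascent chains at the ribosome, at 23.9 to 29.7 FPKM in LH against 17.5 to 18.9 in Ctrl (0.55 ± 0.09 SE, adjusted p = 0.0438). These calls were close to the threshold: over 28 alternative settings the limma adjusted p ran from 0.00173 to 0.248 for Nap1l1, under 0.05 in 11, and from 0.00173 to 0.344 for Naca, under 0.05 in 9, and with only LH and Ctrl in the fit both were lost. Both were also lost without any 1 of the HC or Ctrl mice. The log2 differences in NLH vs. Ctrl were 0.55 ± 0.13 SE (limma adjusted p = 0.309) for Nap1l1 and 0.54 ± 0.09 SE (limma adjusted p = 0.0832) for Naca. After size factors 4 of the 17 were called in LH vs. Ctrl, all higher (0.345% of all genes): Nap1l1, Naca and, with a limma adjusted p of 0.022 and 0.0366, Tpt1 and the elongation factor subunit Eef1g. Tpt1, whose mRNA is a classic pyrimidine-start message, was at 91.6 FPKM in Ctrl, 139 FPKM in NLH and 128 FPKM in LH.

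Of the 34 measured ribosome assembly genes, 23 were higher in NLH than in Ctrl (median log2 difference 0.14), a share of 67.6%, near the 63.4% of all genes. In LH vs. NLH 18 were higher (52.9% beside 39.9% of all genes), and none was called in any comparison. Nucleolin (Ncl), the main nucleolar protein, was at 15.3 FPKM in Ctrl, 19.6 in NLH and 19.2 in LH, and none of these differences passed the adjusted test. Among 14 regulators none was called on the deposited values (0%, 0%, 0.0541% and 0.00676% of all genes in the order of the comparisons above), and 1, Eif4ebp1, in LH vs. Ctrl after size factors (log2 difference -1.57 ± 0.32 SE, limma adjusted p = 0.0467, with 0.345% of all genes called). The translation repressor Eif4ebp1, a target of mTOR, was at 0.358 FPKM in Ctrl, 0.434 in NLH and 0.0655 in LH (LH vs. NLH log2 difference -1.77 ± 0.33 SE, limma adjusted p = 0.186). Its LH values of 0.072, 0.16, 0 and 0.028 FPKM lie near or below the 0.1 added to each value, on which both log2 differences depend. Of the 7 ribosomal proteins and partners outside the naming pattern, such as Fau, 4 were higher in NLH than in Ctrl (57.1% beside 63.4% of all genes).

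The short, abundant mRNAs of the respiratory chain served as a comparison. In NLH vs. Ctrl 66 of 79 were higher (83.5% beside 63.4% of all genes), 10 with an unadjusted limma p under 0.05 (12.7% beside 4.99%) and 9 without overlap (11.4% beside 5.48%), with a median log2 difference of 0.16. Of 77 mitochondrial ribosomal protein genes 62 were higher (80.5%), 7 with an unadjusted limma p under 0.05 (9.09%) and 3 without overlap (3.90%, below the 5.48% of all genes), with a median of 0.16. The cytosolic family lay above both in its median (0.21) and in its share without overlap (26.0%), a difference for which no test was made.

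Most members were held by more than 1 transcript. A single row stood for 15 genes, the other 58 had from 2 to 14 rows, and the leading row held a median of 82.1% of the gene. In the annotation 158 of the 323 rows are protein-coding transcripts with 90.3% of the family's FPKM, 111 keep an intron (3.82%), 39 are processed transcripts (3.13%) and 15 are targets of nonsense-mediated decay (2.77%). In 20 of these 58 genes the second row led in at least 1 mouse. At the level of transcripts limma called none of the 323 rows in any comparison (0.00374%, 0.0125%, 0.0462% and 0.0412% of all transcripts in the order of the comparisons above), and 11, 35, 47 and 35 had an unadjusted p under 0.05 (3.45%, 5.12%, 10.7% and 8.72%). The two-sample test on FPKM gave 11, 45, 24 and 16 (6.71%, 7.25%, 7.73% and 4.58%), and 10, 32, 17 and 11 rows were without overlap (4.48%, 5.02%, 5.85% and 3.18%).

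Rps18 had a pair of rows that differ only at the 5′ end. ENSMUST00000008812.7 (chr17:33951999-33955677, minus strand) is the coding form, and ENSMUST00000174745.7 (chr17:33951999-33955212) starts further downstream and is annotated as a processed transcript. They share their last 501 bases and differ in the 59 and 35 bases before these. The ends of the differing stretches are shown in lower case with the first shared bases in capitals.
ENSMUST00000008812: cgccgccgtctgtgccgccgccatGTCTCT
ENSMUST00000174745: ttgataactgcccgtgttctttcaGTCTCT
The coding form carries the start codon across the junction and the other form does not. ENSMUST00000174745.7 was at 18.7, 21.2, 19.7 and 20.3 FPKM in HC, at 7.03 to 19.2 FPKM in Ctrl and at most 0.250 FPKM in all 4 NLH mice. In LH it was at 13.3 FPKM in LH 2 and below 0.01 FPKM in the other mice. The coding form was at 4.43 to 11.6 FPKM in HC, 13.9 to 20.8 FPKM in Ctrl and 30.2 to 33.7 FPKM in NLH.

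The forms thus stood in opposite order in HC and NLH, and the summed gene was at 34.5 ± 2.33 (HC), 34.7 ± 5.42 (Ctrl) and 35.0 ± 1.44 FPKM (NLH) (SD, n = 4). In NLH vs. Ctrl the limma adjusted p of ENSMUST00000174745.7 was 0.122, and the log2 difference of -6.60 depends on the 0.1 added to each value. In LH vs. Ctrl the limma adjusted p was 0.135. The row passed the threshold when 1 library was left out: without LH 2 the limma adjusted p was 4.22e-06 in NLH vs. Ctrl (11 of all transcripts called) and 4.45e-06 in LH vs. Ctrl (310 called). As LH 2 is set apart by this row itself, the values without it are a description and no test. The LH 4 mouse had neither form, and its 20.4 FPKM of Rps18 came from other rows.
FPKM of overlapping rows divide the same reads, by estimate, over the bases in which the rows differ.

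Rpl35a, another Diamond-Blackfan gene, had different leading rows within LH. Its leading row ENSMUST00000115079.7 was at 5.25 to 8.66 FPKM in HC, 5.29 to 8.53 in Ctrl and 6.94 to 10.3 in NLH, and at 2.26, 7.42, 0.751 and 0.941 FPKM in LH. ENSMUST00000078804.11 was below 0.001 FPKM in HC and Ctrl and at 5.89, 0.0000532, 6.03 and 2.38 FPKM in LH. In NLH it was at 0.680 FPKM in NLH 2 and below 0.001 FPKM in the other mice. LH 2 again stood with Ctrl. In limma the adjusted p was 0.174 for the second row and 0.229 for the leading row in LH vs. Ctrl. Without LH 2, here too set apart by the rows themselves, both were called, with a limma adjusted p of 0.00277 and 0.00622 in LH vs. Ctrl and 0.00798 and 0.00223 in LH vs. NLH (310 and 151 of all transcripts called). In Rpl13a, a protein also known for silencing translation after interferon, ENSMUST00000209927.1 was at 24.8 to 33.8 FPKM in Ctrl and at 45.9, 62.5, 42.6 and 57.0 FPKM in LH, without overlap (log2 difference 0.78 ± 0.15 SE, limma adjusted p = 0.0988). It also lay above Ctrl without overlap in NLH, at 52.1, 49.7, 36.8 and 35.8 FPKM (log2 difference 0.52 ± 0.15 SE, limma adjusted p = 0.566).

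**Figure D5:**
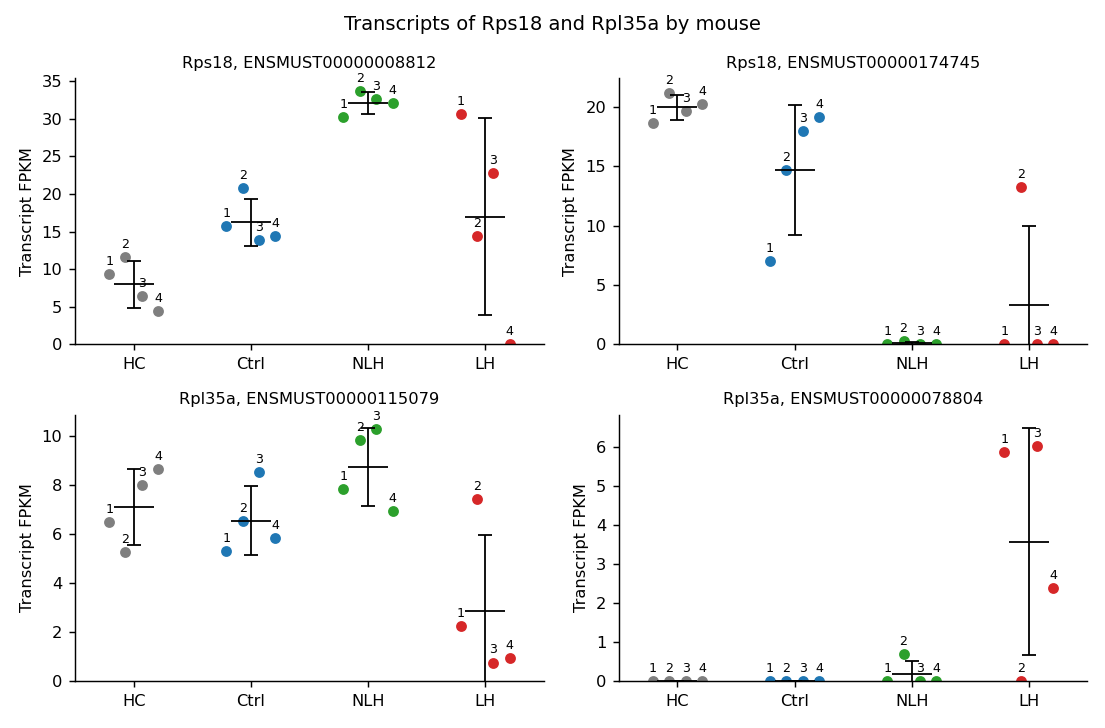
FPKM of a pair of transcripts of Rps18 (top) and Rpl35a (bottom) in each mouse, with the replicate number beside each point and mean ± SD of 4 mice as bars. Rps18 ENSMUST00000174745 is near 0 in all NLH mice and in LH 1, 3 and 4, and Rpl35a ENSMUST00000078804 is high in those 3 LH mice, while LH 2 lies near Ctrl in both.

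Part of the reads of some members stood under assembled transcripts that carry no gene name and that the rule leaves out. Such rows were present at the loci of 51 members, held over 5% of the locus in 12 and most of it in 2, Rpsa (57.5 FPKM beside 16.4 FPKM under the gene name) and Rps23 (65.6 beside 19.25 FPKM). With them added, the log2 difference of Rps23 was 0.0045 in place of -0.26 in Ctrl vs. HC and 0.24 in place of 0.56 in LH vs. Ctrl. For Rpl26 an assembled row stood at 82.4 FPKM in HC 3, 48.4 in HC 4, 52.1 in Ctrl 1 and 53.8 in NLH 1 and below 0.04 FPKM in the other 12 mice. In these 4 mice Rpl26 itself was at 117.8 to 156.3 FPKM, and in the other 12 at 130.7 to 214.8 FPKM. The low Rpl26 values of HC 3, HC 4, Ctrl 1 and NLH 1 thus went with a high assembled row, whose part in them was not tested.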

How the data were processed

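RNA of the pooled hippocampi of 16 mice was made into total RNA libraries and sequenced in paired ends. The authors assembled transcripts with StringTie 1.2.3 in merge mode on mm10 and quantified them with Cufflinks. For the alignment the labels' processing notes name STAR 2.42a and the methods HISAT2. The values deposited by the authors are FPKM of 80137 transcripts after a filter, with no further scaling between mice. The depth of each library is not given in the sources used here, and steps in the low FPKM of 1962 loci did not settle it, since the best estimate moved with the range of depths tried, so no counting interval is given.

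FPKM were summed per gene name over rows of type protein_coding, and limma 3.58.1 (R 4.3.3) was fitted on log2(FPKM + 0.1) of 14785 genes in 16 mice with 4 group means, trend and robust moderation. P-values were adjusted over all genes (Benjamini-Hochberg), or over all transcripts, with a threshold of 0.05. A log2 difference is on this scale and understates changes of low genes. A two-sided exact permutation test over the 70 regroupings of 4 and 4 mice was used for single genes. The study's own two-sample test on FPKM was run as an alternative, as were other pseudocounts, filters, scalings and sums, and each mouse was left out in turn. Mice are separate animals. In the main limma fit the SE and p-values rest on a spread shared by all groups, so the wider spread of the LH mice enters every comparison. The permutation and two-sample tests use only the mice compared. Leaving out LH 3 and LH 4 together, locus sums with assembled rows, and sums over coding transcripts alone were chosen after seeing the data, as were overlap counts under other settings.

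The members and lists were chosen with earlier results of these data known. Named genes were, per comparison, the 5 members with the smallest p at a mean of at least 1 FPKM, the 10 highest and 5 lowest members, the stalk, paralogs with their partners, Rps27a, the 5 most and least variable members and Rps24 and Rpl13a. Some genes that this rule names are not reported here. Further members are named where groups did not overlap or where a transcript differed, and list genes where they were called, after their values were seen. Replicate numbers did not pair mice (correlation of deviations between same-numbered mice -0.0807 to 0.144). Positions come from GENCODE vM21 (GRCm38) and promoter sequences from RefSeq (GRCm38.p6), in which 53 of 73 members matched. The limma fit was also run on simulated data, with independent genes and an equal spread in every group. The real data have neither, so that run does not test the fit under their conditions.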

Additional observations from a re-analysis of the deposited data

Results flagged for a closer look

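In 146 groups of 4 mice (the named members, their sum and their share in each group), 13 held a mouse far from the other 3. Chance gives about 1 in 20 for groups not chosen by their values. Some named members were chosen for their spread or p in these same mice, and the genes share their libraries. The count is therefore not set against that rate. The gap was the criterion, relative to the whole range of the group. Rps27 was at 57.3 FPKM in NLH 3 against 7.79 to 11.6 in the other NLH mice, and at 4.18 FPKM in Ctrl 2 against 9.85 to 10.9 in the other Ctrl mice. Rpl30 was at 70.2 FPKM in HC 1 against 21.8 to 26.05. Rpl26 was at 129.9 FPKM in Ctrl 1 against 191.8 to 198.6, in a mouse whose assembled Rpl26 row was at 52.1 FPKM. In NLH, Rpl37 (9.25 FPKM) and Rps26 (99.15 FPKM) were low in NLH 1 and Rps20 (19.75 FPKM) was high in NLH 3. In HC, Rps18 was low in HC 3 (31.0 FPKM) and Rpl31 high in HC 4 (51.2 FPKM). In Ctrl, Rpl23a was high in Ctrl 4 (16.35 FPKM) and Rps27l high in Ctrl 2 (12.5 FPKM). Rpl3l was at 0.110 FPKM in Ctrl 1 and 0.129 FPKM in LH 3 and at 0 in the other mice of both groups, a pattern that always meets the criterion.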

How the results depend on the processing

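Of the 20 single-gene differences rerun over the settings, those with the smallest p in each comparison, 2 turned their sign. Rps23 in Ctrl vs. HC turned to 0.0045 with assembled rows of the locus added. Rps20 in LH vs. NLH turned to 0.22 over coding transcripts only, which leave out its leading row. The count of members called, 0 as reported in each comparison, became 1 in NLH vs. Ctrl and 1 in LH vs. Ctrl with size factors, 1 in NLH vs. Ctrl with equal summed FPKM (8 of all genes, 0.0541%), 3 in NLH vs. Ctrl with only the 2 groups in the fit, and 14 and 13 in NLH vs. Ctrl and LH vs. Ctrl with array quality weights. Without LH 3 and LH 4 it was 3 and 11, with a median log2 difference in LH vs. Ctrl of 0.29 and 44 members without overlap (2 against 4 mice), 43 higher beside 37.5% of all genes and 1 lower beside 2.66%. In the order Ctrl vs. HC, NLH vs. Ctrl, LH vs. Ctrl and LH vs. NLH, the two-sample test gave 6, 23, 7 and 1 members, absence of overlap 3, 19, 6 and 1, and limma without adjustment 2, 18, 13 and 10. With size factors 10, 13 and 6 members had no overlap in Ctrl vs. HC, LH vs. Ctrl and LH vs. NLH, and 5 in LH vs. NLH without LH 3 and LH 4, where 19.5% of all genes were higher and 2.53% lower without overlap. For transcripts, 0 as reported, the two-sample test gave 11, 45, 24 and 16, absence of overlap 10, 32, 17 and 11, and limma without adjustment 11, 35, 47 and 35. In NLH vs. Ctrl size factors gave 1 transcript (15 of all transcripts), only the 2 groups 4 (34 of all) and array quality weights 4 (89 of all).

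Leaving out 1 mouse in turn, called members ranged from 0 to 1 in NLH vs. Ctrl and from 0 to 3 in LH vs. Ctrl, the higher values without LH 4. Called transcripts ranged from 0 to 1 in NLH vs. Ctrl (1 without LH 2, LH 4 or NLH 1, beside 11, 21 and 47 of all transcripts), from 0 to 5 in LH vs. Ctrl (5 without LH 2 beside 310 of all, 2 without LH 4 beside 67) and from 0 to 3 in LH vs. NLH (3 without LH 2 beside 151, 1 without NLH 1 beside 242). The median log2 difference ranged from -0.04 to 0.04 in Ctrl vs. HC, from 0.16 to 0.28 in NLH vs. Ctrl, from -0.06 to 0.18 in LH vs. Ctrl and from -0.27 to -0.04 in LH vs. NLH. Without the 5 most abundant genes the shares were 2.01, 1.99, 2.22 and 1.92% in HC, Ctrl, NLH and LH, and as a share of protein-coding rows 3.33, 3.29, 3.57 and 3.18%. With the replicate block, the number of members called was 0 in all 4 comparisons, and replicate numbers did not pair the mice. The cause of these shifts was not tested. Depth is unknown, so the counting error of low members such as Rpl3l could not be estimated.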
